A study of Mus musculus with 3 samples.

Results

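Ttn, the gene of titin, was described in messenger RNA of mouse regulatory T cells (Tregs). It is the single gene of that name among 55536 genes in GENCODE M21 (ENSMUSG00000051747.14), and its 25 annotated transcripts were followed in 3 libraries. The gene lies on chromosome 2, 76703980 to 76982547, on the minus strand of mm10, and spans 278568 bases. It was selected on its measured level, its transcript shares and its difference between the libraries, so these are given as a description with no test.

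The cells were Tregs labelled as having experienced inflammation, from male adult mice of the strain Foxp3CreERT2 x Rosa26YFP at 6 months of age. The labels give 1 group with 1 biological replicate and 3 technical replicates. The libraries are called 1, 2 and 3 after their technical replicate numbers. The number of animals and the step at which the replicates were divided are not given, so the spread between libraries may be technical and says nothing of other animals. Cre-ERT2 sits at Foxp3, which ties the recombinase to Foxp3-expressing cells. No resting Tregs and no other cell type were analysed here.

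Titin is a giant protein that runs from the Z-disc to the M-line of the sarcomere in striated muscle. Its amino-terminal part is anchored in the Z-disc, its I-band part works as a molecular spring, and its carboxy-terminal part binds the thick filament and holds a kinase domain near the M-line. Alternative splicing of the I-band exons sets the length of the spring: the form called N2B is the short, stiff form of heart, and the form called N2A is that of skeletal muscle. A titin isoform has also been described in human T lymphocytes, in connection with their trafficking.

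Estimated gene counts summed to 11829501 in library 1, 14136139 in library 2 and 10667765 in library 3. All 10 Treg and T cell markers were at 1 TPM or more in every library, where TPM is a transcript level corrected for length and library size. Foxp3, the defining factor of the lineage, stood at 18.0, 14.2 and 16.0 TPM. It did not pass the test between libraries given below, but the other 9 did, against 45.7% of all genes. Of these, 3 were highest in library 1, 2 in library 2 and 4 in library 3. Il2ra had 85.6, 63.3 and 98.1 TPM and Ctla4 146, 96.4 and 130, both named after their values were seen. Markers of other cells were uneven as well. Erythroid markers summed to 4.83, 51.2 and 287 TPM in libraries 1, 2 and 3, B and plasma cell markers to 462, 727 and 913, myeloid markers to 3.37, 45.7 and 17.0, and NK and CD8 T cell markers to 24.1, 259 and 84.1. In bulk RNA, fewer cells of a type and less RNA per cell cannot be told apart.

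Titin transcripts differ by which exons they join, so the joined sequences show what each count stands for. Exon 44 of Ttn-201 ends at base 76921551, and 3 continuations of it are annotated. The sequences below are 25 bases on either side of the junction, 5′ to 3′, from the GENCODE M21 transcripts, with the downstream exon in capitals.
Into the inserted exon (Ttn-201 and Ttn-203): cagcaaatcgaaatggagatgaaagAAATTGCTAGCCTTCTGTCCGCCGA
Past the inserted exon (Ttn-204, Ttn-205 and Ttn-211): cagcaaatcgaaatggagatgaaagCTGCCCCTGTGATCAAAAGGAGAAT
Into the terminal exon of Ttn-202: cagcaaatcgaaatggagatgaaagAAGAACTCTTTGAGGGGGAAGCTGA

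The inserted exon is exon 45 of Ttn-201, 2646 bases long at 76907308 to 76909953. It is the exon that gives N2B titin its name. Ttn-202 instead ends in an exon of 6520 bases at 76913944 to 76920463, which is the arrangement known as novex-3, a short titin that does not reach the A-band.

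A second choice follows at exon 46 of Ttn-201, which ends at base 76906254.
Past the I-band block (Ttn-201 alone): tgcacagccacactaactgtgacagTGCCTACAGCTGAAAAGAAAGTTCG
Into the I-band block (Ttn-203, Ttn-204, Ttn-205 and Ttn-211): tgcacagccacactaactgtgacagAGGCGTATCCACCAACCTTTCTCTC

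The junction of Ttn-201 goes on at base 76818816 and leaves out 121 exons of Ttn-205, 22251 bases in all. From Ttn-203 it leaves out 154 exons and 24843 bases. Ttn-201 thus has 192 exons in 81843 bases and 26886 codons, the N2B arrangement. Ttn-203 has 347 exons in 106824 bases and holds both the inserted exon and the block. Ttn-204 and Ttn-205 have 312 and 313 exons and hold the block without the inserted exon, as N2A titin does. The 4 full-length transcripts share 77993 bases, 95.3% of Ttn-201. Ttn-201 has no base of its own. Reads over the inserted exon set it apart from Ttn-204 and Ttn-205, though not from Ttn-203. Beyond these, its count rests on reads over its junction and on how few reads the model placed in the block.

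**Figure D1:**
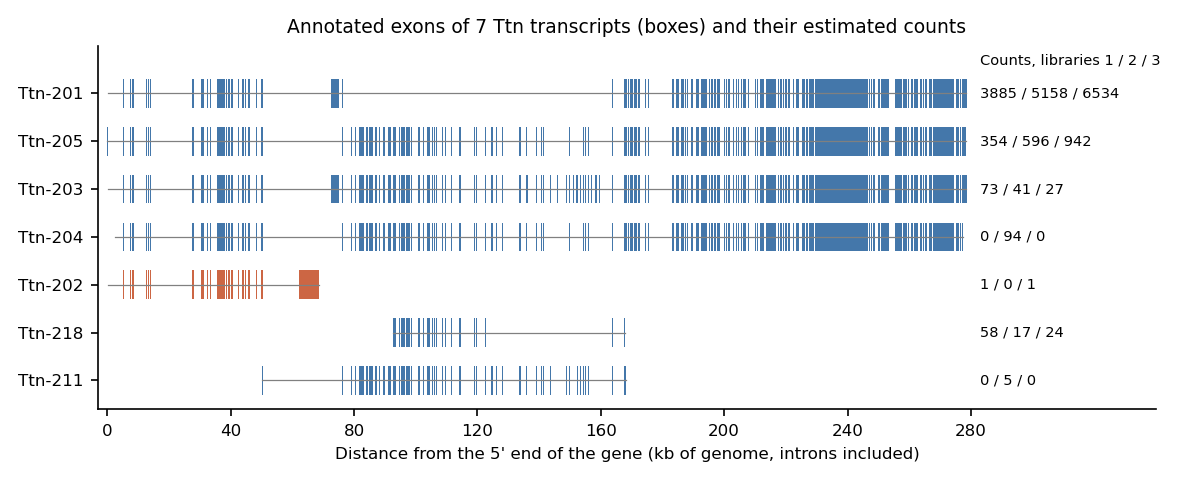
Exons (boxes) of 7 Ttn transcripts by distance from the 5′ end of the gene in kb of genome, with estimated counts in libraries 1, 2 and 3 at the right; Ttn-202 is in red. Ttn-201 lacks the I-band block and holds 3885, 5158 and 6534 counts, whereas Ttn-202 holds 1, 0 and 1.

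Nearly all titin reads were placed on full-length transcripts, and mostly on the N2B arrangement. Ttn-201 (ENSMUST00000011934.11) held 3884.78, 5158.21 and 6534.02 estimated counts in libraries 1, 2 and 3, or 88.9%, 87.2% and 86.8% of the gene's counts. Its level was 5.25, 5.77 and 9.62 TPM, a mean of 6.88 ± 2.39 (SD, n = 3 libraries). The share of counts had an SD of 1.09 percentage points over the libraries, while the level was highest in library 3. The authors' own TPM intervals, whose level is not stated, were 4.27 to 4.67, 4.87 to 5.27 and 7.82 to 8.44, so the point value of Ttn-201 lay above its interval in each library.

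The full-length transcripts with the I-band block together held 427, 731 and 969 counts, 9.76%, 12.4% and 12.9% of the gene. Ttn-205 took most of these, at 353.78, 595.9 and 941.97 counts. Its posterior SD, the uncertainty of read assignment in reads, was 107, 174 and 158, against 62.8, 75.4 and 99.6 for Ttn-201. Ttn-203, the transcript with both segments, held 72.73, 40.87 and 27.22 counts with a posterior SD above the count in library 2. Ttn-204 held 0, 94.31 and 0.07 with posterior SDs of 72.9, 154 and 121. In Ttn-204 the posterior SD thus exceeded the count in every library. Among the 4 full-length transcripts, Ttn-201 took 91.9%, 89.6% and 89.3% of the TPM in libraries 1, 2 and 3, a mean of 90.3% ± 1.44 (SD, n = 3).

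The short novex-3 form was at or under the counting floor. Ttn-202 held 1, 0 and 1 counts, although 6520 of its bases are in no other titin transcript. At the density of Ttn-201, 47.5, 63.0 and 79.8 counts per kb, a stretch of that length would hold 309, 411 and 521 counts. All 3 retained-intron transcripts, Ttn-206, Ttn-207 and Ttn-217, were at 0 counts in every library, which allows up to 3 counts each. They hold 931, 1211 and 959 bases that no other titin transcript has. Of all 25 transcripts, 14 were at 0 in all libraries, 7 were above 0 in some, and 4 were above 0 in all: Ttn-201, Ttn-203, Ttn-205 and Ttn-218.

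Short fragments weigh more on the TPM scale than in reads. The 20 transcripts other than Ttn-202 and the full-length ones held 59.7, 25.7 and 24.7 counts, which is 1.37%, 0.434% and 0.328% of the gene's counts. On the TPM scale they took 15.8%, 9.68% and 4.60%. Ttn-218, a model of 10229 bases that lies mostly over the block and runs past its 3′ end, held 57.54, 16.97 and 23.92 counts and 9.20%, 2.14% and 2.51% of the TPM. A single read also counts for much in the smallest models: Ttn-208 (549 bases) held 1.18 counts in library 1 and 3.83% of the gene's TPM there. The share of Ttn-201 was therefore 77.3%, 81.1% and 85.2% by TPM.

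**Figure D2:**
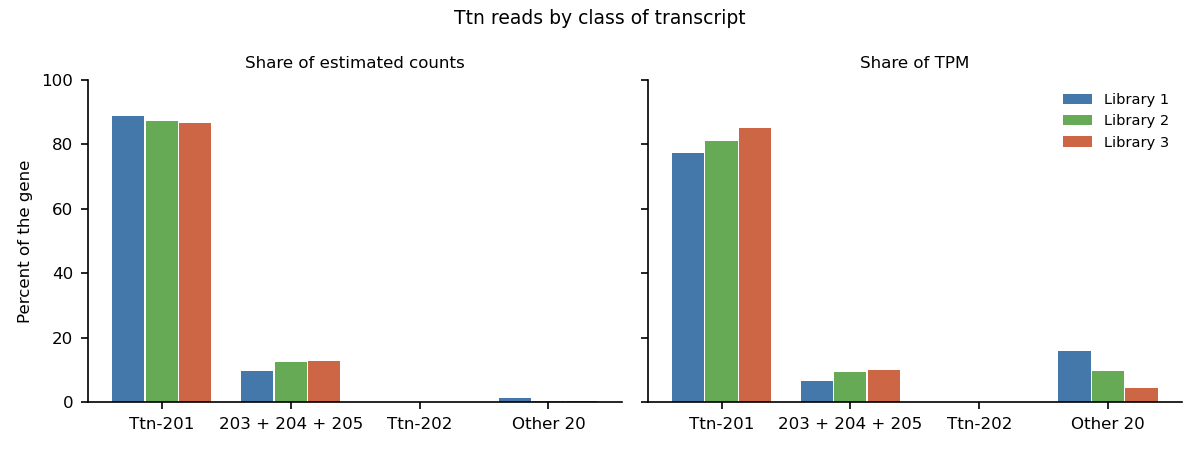
Percent of the gene's estimated counts (left) and of its TPM (right) in Ttn-201, in Ttn-203, Ttn-204 and Ttn-205 together, in Ttn-202 and in the other 20 transcripts, with 1 bar for each library. Ttn-201 takes 86.8% to 88.9% of counts, and the other 20 take 4.60% to 15.8% of TPM from at most 1.37% of counts.

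The gene as a whole stood at 6.79, 7.12 and 11.3 TPM in libraries 1, 2 and 3, a mean of 8.40 ± 2.51 (SD, n = 3). It rested on 4372, 5915 and 7529 estimated counts, with a posterior SD of 1.24, 1.17 and 1.23 counts. Assignment of reads to the gene was thus far surer than assignment to its transcripts. The authors' TPM intervals for the gene were 6.90 to 10.2, 7.11 to 9.82 and 10.7 to 14.1, and the value of library 1 lay just below its own. The counts were 0.0370%, 0.0418% and 0.0706% of all gene counts, with 95% Wilson intervals of 0.0359 to 0.0381, 0.0408 to 0.0429 and 0.0690 to 0.0722. The intervals cover counting error only. By TPM the gene ranked 7727, 7577 and 6629 among the 10131 protein-coding genes at 1 TPM or more in every library. By counts, which grow with length, it ranked 393, 323 and 157.

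Genes at the same level were far shorter. The 5 protein-coding genes next below Ttn in mean TPM were Gm13212, Ube4b, Adam15, Tnfrsf14 and Vhl, and the 5 next above were Tfeb, Rap1gap2, Ccdc167, Mx1 and Snai3. Their means ran from 8.38 to 8.43 TPM, as the choice of nearest genes fixes, and the SD of Ttn was 2.51. Their longest annotated transcripts ran from 1173 bases (Tnfrsf14) to 7117 bases (Ccdc167). Tfeb, a transcription factor of lysosome genes, had 7.10, 8.45 and 9.67 TPM from 123, 168 and 134 counts.

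Library 3 held the most titin in every deposited measure. Scaled to library size with TMM, the counts were 372, 429 and 685 CPM, which is a share of the library's counts, in libraries 1, 2 and 3. Library 3 was 1.84-fold above library 1 and 1.60-fold above library 2, and library 2 was 1.15-fold above library 1. The whole-number counts made on GENCODE M4 were 3743, 5033 and 6324, or 1267, 1482 and 2294 CPM, with folds of 1.81, 1.55 and 1.17. In TPM the folds were 1.66, 1.59 and 1.05. Beside this, the mean transcript length of the gene, as deposited, was 71191, 76133 and 80333 bases in libraries 1, 2 and 3. The 2 count tables come from the same libraries and do not replicate each other.

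**Figure D3:**
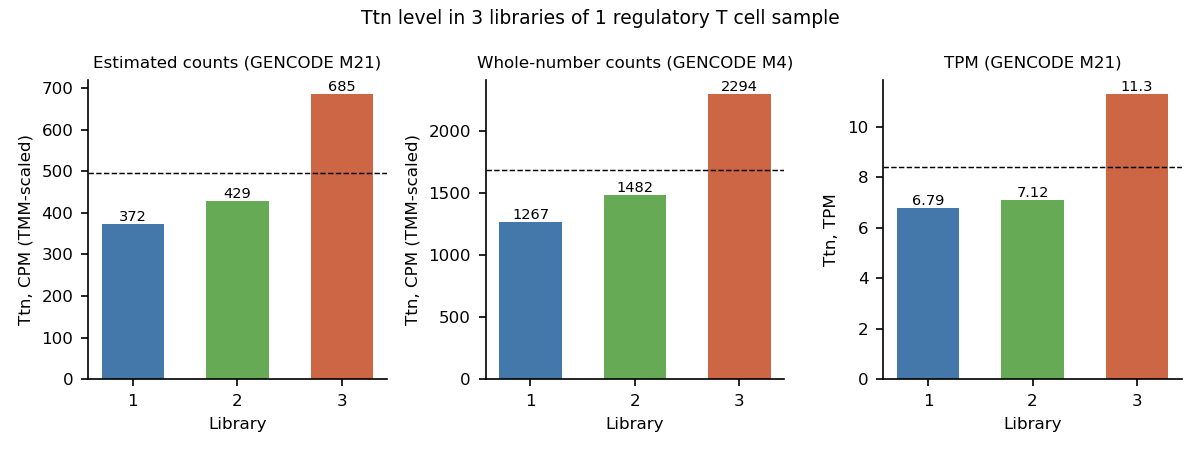
Ttn in each library as TMM-scaled CPM of estimated counts (left), TMM-scaled CPM of whole-number counts (middle) and TPM (right); the dashed line is the mean of 3 libraries. Library 3 is highest in each panel, at 685 CPM, 2294 CPM and 11.3 TPM.

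Both titin forms with over 300 counts in every library were highest in library 3. Ttn-205 stood at 0.380, 0.540 and 1.12 TPM, and Ttn-201 at the values above. The fragment Ttn-218 instead stood at 0.620, 0.150 and 0.280 TPM, and Ttn-203 at 0.0800, 0.0400 and 0.0300, both highest in library 1. These values rest on 16.97 to 72.73 counts.

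Across all genes, a Poisson chi-square test with Benjamini-Hochberg adjustment called 6388 of 13970 tested genes, 45.7%, as unequal between the libraries. Of all tested genes, 16.2% passed and were highest in library 3. Ttn had a chi-square per degree of freedom of 652, rank 13 from the top, between Lcp1 at 702 and Trbv1 at 624. The median over all tested genes was 3.28. This value chose the gene and supports nothing further. It also grows with the count, and as a log2 ratio of library 3 to the mean of libraries 1 and 2 Ttn stood at 0.78. Counting Ttn itself, 636 genes that passed and were highest in library 3 had a ratio as large.

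Markers of other cells moved in the same order as Ttn in some lists. All 5 tested erythroid markers and 7 of 9 B and plasma cell markers passed and were highest in library 3, against a background of 16.2%. Hbb-bs, a haemoglobin gene, had 6, 113 and 518 counts in libraries 1, 2 and 3, and Slc4a1, an anion exchanger of red cells with too few counts for the test, had 0, 3 and 12. Among B cell markers Cd79b had 198, 293 and 327 counts, and Jchain 12, 289 and 251. Slc4a1 was named after its values were seen. Erythroid markers summed to 4.83, 51.2 and 287 TPM in libraries 1, 2 and 3, where Ttn stood at 6.79, 7.12 and 11.3 TPM. The part of these other cells in the level of titin or in its difference between libraries was not tested.

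Striated muscle markers were mostly near 0. Of 37 markers, 4 were at 1 TPM or more in all libraries and 31 were under 1 TPM in all. In 22 of them no library exceeded 3 counts. The list summed to 71.7, 63.0 and 65.1 TPM in libraries 1, 2 and 3, highest in library 1. Myoglobin (Mb), the calsequestrin genes Casq1 and Casq2, the myosin light chain genes Myl1, Myl3 and Myl7, and parvalbumin (Pvalb) were at 0 estimated counts in every library, and 1 whole-number count was given to Myl3 in library 1. Of the 5 tested members, 2 passed, near the 45.7% of all genes, and 0 passed with library 3 highest, where 16.2% of all genes did.

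The 4 muscle markers above the limit were Mylpf, Neb, Myl4 and Tnnt1. Neb, the gene of nebulin, a giant protein along the thin filament of skeletal muscle, had 24.3, 17.5 and 18.5 TPM from 1375, 1327 and 1046 counts. It passed the test between libraries (adjusted p = 2.50e-07) and was highest in library 1. Mylpf, a fast skeletal myosin light chain, had 23.2, 18.6 and 20.6 TPM from 79, 91 and 82 counts. Myl4, an atrial light chain, had 15.2, 14.1 and 15.1 TPM from 100, 116 and 92 counts. Its leading transcript was a retained-intron model of 677 bases, with 88.9%, 88.7% and 86.0% of its TPM. A coding transcript of 879 bases held 9 counts in each library. Tnnt1, slow skeletal troponin T, had 20, 51 and 26 counts, led by a retained-intron model of 796 bases.

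**Figure D4:**
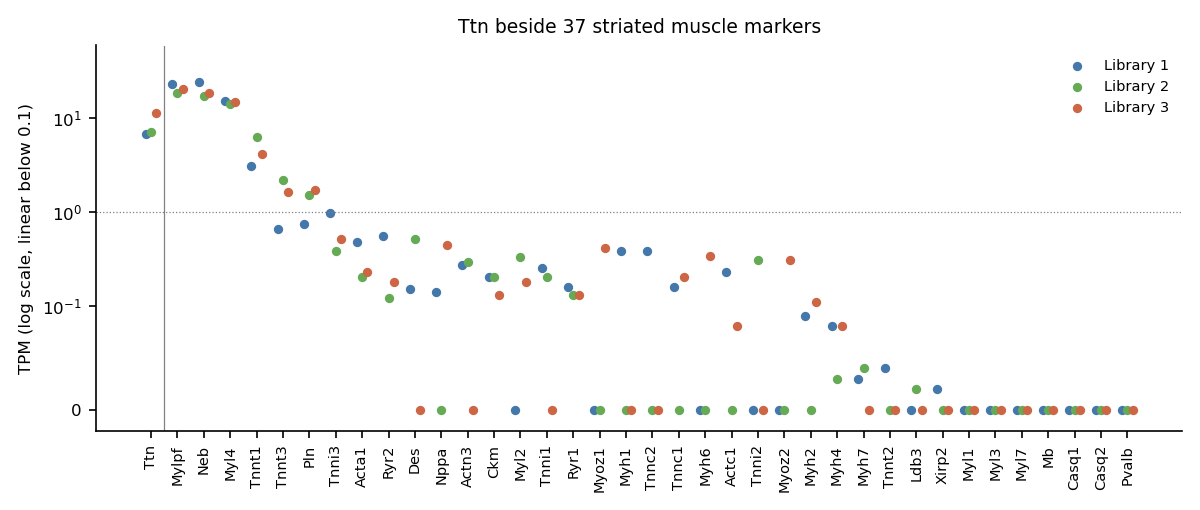
TPM of Ttn (left of the line) and of 37 striated muscle markers, with 1 point for each library on an axis that is logarithmic above 0.1 and linear below it; the dotted line marks 1 TPM. Mylpf, Neb, Myl4 and Tnnt1 alone are above 1 TPM in all libraries, and 7 markers lie at 0 in all.

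Transcripts of the proteins that titin meets in the sarcomere were found for some partners and not for others. Of 25 partner genes, 9 were at 1 TPM or more in all libraries and 16 under 1 TPM in all. The 5 with the highest level were Bin1, Nbr1, Sqstm1, Actn2 and Ankrd23. Bin1, which shapes membranes, averaged 76.2 ± 1.83 TPM (SD, n = 3). Nbr1 and Sqstm1, autophagy receptors that act beside the titin kinase in muscle, averaged 72.2 ± 13.0 and 39.8 ± 6.18. Part of the Nbr1 level came from a non-coding model of 63 bases. It held 3.99, 2.45 and 1.93 counts but 36.5%, 26.3% and 24.0% of the gene's TPM in libraries 1, 2 and 3. None of Bin1, Nbr1 and Sqstm1 passed the test between libraries.

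Actn2, the alpha-actinin that crosslinks titin in the Z-disc, had 29.4, 28.8 and 44.1 TPM, highest in library 3 (adjusted p = 0.00103). This level came from few reads on a short model: a processed transcript of 501 bases held 118, 141 and 163 of 135, 152 and 181 counts. Ankrd23, a titin-binding ankyrin repeat gene, had 443, 429 and 429 counts and 33.6, 27.9 and 35.4 TPM, also highest in library 3 (adjusted p = 0.00509). Of the 9 tested partners 5 passed, against 45.7% of all genes, and 4 of them were highest in library 3, against 16.2%, with a median log2 ratio of library 3 to the others of 0.18 against -0.01 over all tested genes. Capn3, the muscle calpain that binds titin, and Cryab, a small heat shock protein, were the other partners highest in library 3, at 49, 42 and 81 counts and at 27, 14 and 31 counts. Fhl2, a LIM-domain partner of titin, also passed (adjusted p = 6.09e-06) and went the other way, with 47, 76 and 15 counts and a log2 ratio of -1.73. Capn3, Cryab and Fhl2 were named after their values were seen.

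In 14 of the 25 partners no library exceeded 3 estimated counts. Ankrd2, Trim54 and Trim63 were at 0 estimated counts in all libraries. Tcap, which caps titin at the Z-disc, had 1, 0 and 0 counts and was singled out after its values were seen.

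Genes with immunoglobulin or fibronectin domains like those of titin, listed together with the nebulin family, were mostly near 0 as well. Of these 25 genes, 2 were at 1 TPM or more in all libraries. Both belong to the nebulin family and are not relatives of titin by these domains: Neb, and Nebl (nebulette) at 21.2, 13.8 and 25.2 TPM. Nebl was highest in library 3, but its leading transcript Nebl-205 is a processed transcript with 273, 183 and 328 counts. Its coding transcript of 5780 bases held 194 counts in library 1 and at most 207 in any library. Ccdc141, the neighbour of Ttn on the chromosome, had 30, 38 and 22 counts, Palld (palladin) 20, 25 and 31, and Myom2, an M-line protein, 2, 18 and 8. The genes Igfn1, Nrap and Mybphl were at 0 estimated counts in all libraries, though Nrap had 0, 3 and 0 whole-number counts.

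Most listed splicing factors were abundant, and the heart factor of titin splicing was not. Of 17 factors, 13 were at 1 TPM or more in all libraries, led by Mbnl1 at 660 ± 64.6 TPM, Sf3b1 at 310 ± 12.5, Hnrnpl at 305 ± 10.1, Rbm25 at 282 ± 21.3 and Srsf10 at 144 ± 6.74 (SD, n = 3). Rbm20, the factor that represses I-band exons of titin in heart and so gives the N2B form, was at 0.160, 0.120 and 0.480 TPM from 7, 6 and 13 counts. It was singled out after its values were seen. Rbfox1 was at 0 estimated counts, with 1 whole-number count in library 1. Of the 13 tested factors 8 passed, against 45.7% of all genes. Mbnl1 (log2 ratio 0.15) and Rbm25 (0.18) were the 2 of these highest in library 3, against 16.2% of all genes. Another 4 were highest in library 2, against 15.5%, and 2 in library 1, against 14.0%. The median log2 ratio of the tested factors was -0.05.

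Muscle transcription factors divided in the same manner. Of 14, 3 were at 1 TPM or more in all libraries: Mef2d at 10.2, 13.2 and 15.0 TPM, Mef2a at 7.73, 9.54 and 8.50, and Srf at 10.1, 6.12 and 8.50, all of which act in many cell types. Of the 4 tested, 3 passed, against 45.7% of all genes, with Mef2d (adjusted p = 7.85e-06) and Mef2c (adjusted p = 2.15e-13) highest in library 3, against 16.2%. Mef2c, which B cells and myeloid cells also express, had 15, 97 and 98 counts, and Tead1 1, 10 and 10. Gata4, Hand2, Myod1, Myog and Nkx2-5, which define heart and skeletal muscle, were at 0 estimated counts in all libraries, and Myod1 had 1 whole-number count in library 3.

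Along the chromosome, most genes near Ttn did not pass the test or were near 0. No gene overlaps it except the antisense Gm13938 on the plus strand, which was at 0 counts in every library. The strand setting is not given in the sources used here, so reads of both strands cannot be told apart by strand. Plekha3, next to its 3′ end, had 159, 217 and 174 counts and 7.81, 8.21 and 9.35 TPM, and Fkbp7 had 15, 18 and 17 counts. Beyond Ccdc141 upstream, Sestd1 had 7, 3 and 3 counts. Of the tested genes within 500 kb, Pde11a alone, a phosphodiesterase, passed the test (adjusted p = 3.65e-09). It had 52, 54 and 109 counts and its highest level in library 3. Over all tested genes 45.7% passed, and 16.2% passed with library 3 highest. Rbm45, Prkra, Fkbp7, Plekha3 and Ccdc141 did not pass, and the remaining neighbours had too few counts for the test.

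Most other cytoskeletal genes listed for lymphocytes were higher than Ttn per length. Of 25 listed, 20 were at 1 TPM or more in all libraries and 19 had a higher mean TPM than Ttn, led by Vim at 760 ± 102 TPM, Flna at 261 ± 30.1, Myh9 at 233 ± 8.88, Utrn at 137 ± 26.1 and Tln1 at 100 ± 3.85 (SD, n = 3). Of the 22 tested, 16 passed, against 45.7% of all genes. Among them 10 were highest in library 1, against 14.0% of all genes, and 4 in library 3, against 16.2%, and the median log2 ratio of library 3 to the others was -0.05. Utrn, the gene of utrophin, a membrane anchor of actin, was among those highest in library 3, with 131, 114 and 165 TPM. Flna, which crosslinks actin, went the other way, with 287, 269 and 228 TPM.

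Genes were compared by their longest annotated transcript, which need not be the one that holds their reads. In library 1, Hnrnpr (longest transcript 21452 bases) had 89.1 TPM from 2098 counts. Neb (22489 bases) had 24.3 TPM from 1375 counts there, and Ttn 6.79 TPM from 4372. Among tested protein-coding genes, the median log2 ratio of library 3 to the others was -0.05 for the 2316 genes whose longest transcript is under 2000 bases, 0.12 for the 593 genes of 8000 to 15000 bases, and 0.11 for the 51 genes of 15000 bases or more, where the 5th to 95th percentiles were -0.43 and 1.19. Ttn, one of the 51, stood at 0.78. In the group of 51, 31 genes passed, 60.8% against 45.7% of all genes, and 19 passed and were highest in library 3, 37.3% against 16.2%. Of the 593 genes, 34.6% passed and were highest in library 3, and of the 2316 shortest 12.5% did. D10Wsu102e, whose longest annotated transcript is 123179 bases, stood at -0.22, Syne1 at 0.13, Zbtb20 at 0.42, Macf1 at 0.17, Dst at 0.25 and Neb at -0.16. D1Ertd622e stood at -0.12, Syne2 at 0.16 and Hnrnpr at -0.02. Malat1, a nuclear RNA, had 4468, 4404 and 5388 TPM. Of the 5 nuclear RNAs listed 4 were tested, and 3 passed and were highest in library 3, against 16.2% of all genes. Xist, with only 11, 15 and 8 counts in these cells of male mice, did not pass, at a log2 ratio of -0.42. The part of transcript length or of nuclear RNA in the titin difference was not tested.

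The pattern of Ttn over the 3 libraries was closest to that of Cd83, Plbd2, Zswim4, Jun, Zc3h6, Dynlt1c, Parp8 and Marc2. Likeness was the Euclidean distance of log2 CPM centred on each gene's mean, over 3 libraries and 8514 protein-coding genes averaging at least 100 counts. These 8 lay at 0.032 to 0.089, against a median of 0.69. Cd83, a surface protein of activated lymphocytes and dendritic cells, had 83.6, 91.6 and 159 TPM in libraries 1, 2 and 3, and Jun, a subunit of AP-1, had 5.41, 5.79 and 10.4. With 3 libraries many genes can lie close by, and the order rests on library 3 being high.

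Ttn kept more of its reads in the whole-number table than genes of like abundance. Its whole-number counts were 85.6%, 85.1% and 84.0% of its estimated counts in libraries 1, 2 and 3. The 132 genes with a mean count within 1.2-fold of Ttn, a window set after the data were seen, kept a median of 18.4%, and none of them kept more than Ttn. Their median density was 3343 counts per kb, against 78.3 counts per kb for Ttn. The 772 genes with a like density kept a median of 40.3%. Among the 10 genes with the longest annotated transcripts the share varied widely. Neb kept 78.3%, 80.2% and 79.0%, Macf1 72.1%, 71.7% and 72.5%, and Syne2 67.9%, 63.2% and 69.2%. Dst kept 0%, 0.207% and 0.0996%. The others were low as well: in library 1 D10Wsu102e kept 14.2%, D1Ertd622e 15.8%, Syne1 16.3%, Zbtb20 13.3% and Hnrnpr 28.0%. The reason for this was not tested.

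**Figure D5:**
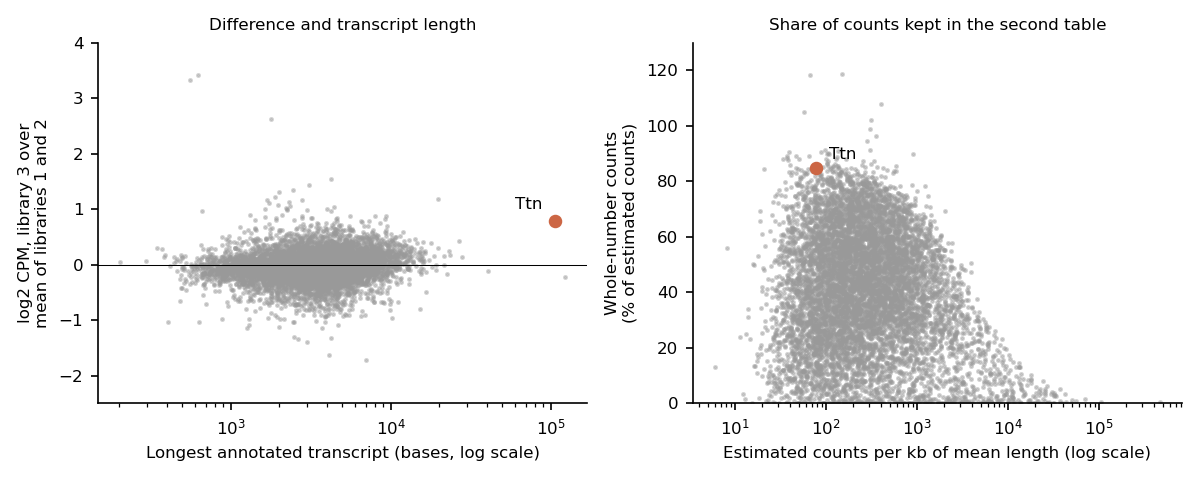
Left, log2 CPM of library 3 over the mean of libraries 1 and 2 against the longest annotated transcript (log scale) for 8521 protein-coding genes averaging at least 100 counts, 1 of which lies beyond the axis. Right, whole-number counts as a percent of estimated counts against estimated counts per kb (log scale) for 8527 genes, 10 of which lie beyond the axis; Ttn, in red, is at 0.78 on the left and at 84.9% on the right.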

How the data were processed

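Polyadenylated RNA of 1 Treg group was read from 3 technical replicate libraries. The authors deposited estimated counts per gene and per transcript with TPM made from them, and the percent of the gene's TPM in each transcript, on mm10 and GENCODE M21, per the file headers and the description deposited with them. Deposited beside them were TPM intervals and a posterior SD, a signal on the scale of reads. Deposited effective lengths of Ttn were 49 bases under its length. Whole-number counts on GENCODE M4 were deposited separately. Aligner, tool versions, strand and duplicate handling were not given in the sources used here.

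Estimated counts were rounded. The labels give a single group, which leaves no contrast for edgeR's quasi-likelihood fit. Genes averaging at least 10 counts entered a Poisson chi-square test for equal rates on TMM-scaled library sizes (edgeR 4.0.16, R 4.3.3; DESeq2 1.42.0 size factors as an alternative), with Benjamini-Hochberg adjustment and a threshold of 0.05, and the test was checked on simulated data. It compares these libraries, treating reads as independent. A count of 0 allows up to 3 counts, which is 0.254, 0.212 and 0.281 CPM in libraries 1, 2 and 3. Log2 ratios use CPM + 0.1, which understates changes of low genes. Levels are mean ± SD over libraries.

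Gene, lists and comparisons were chosen with earlier results of these data known. Named genes are the 5 highest of each list and members at 0, neighbours within 500 kb, the 5 on either side in level, the 8 most alike and the 10 longest. A few others are named as marked. One of 8 erythroid symbols was not in the annotation.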

Additional observations from a re-analysis of the deposited data

How the results depend on the processing

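The rise of Ttn in library 3 kept its direction under every scaling, unit and pseudocount tried: the log2 ratio to the mean of libraries 1 and 2 was 0.78, between 0.69 and 0.84 with DESeq2 size factors, total counts, TPM, a pseudocount of 1 or the whole-number counts, and 0.69 to 0.88 leaving out library 1 or 2. The highest library lay 0.88 above the lowest, and leaving out each library, also chosen later, gave 0.20 to 0.88, with 0.20 without library 3. The mean level of 8.40 TPM became 9.74 with the posterior mean and 7.64 over the 4 full-length transcripts, an alternative chosen after seeing the data, and 6.96 to 9.21 leaving out each library. The share of Ttn-201, 81.2% of TPM, became 87.6% of counts, 59.6% with posterior means and 90.3% of full-length TPM (also chosen later), and 79.2% to 83.2% leaving out each library. A total of 4 muscle markers reached 1 TPM, 4 to 6 leaving out each library, and 11 reached 0.1 TPM. The 6388 genes that differed became 2157 in the whole-number table (21.5% of those tested there) and 2978 to 4765 leaving out each library, with 2978 without library 3. The cause of these shifts was not tested. No paired analysis was possible because the labels give 1 group. The counts of Ttn-203 and Ttn-204 are the least sure: the posterior SD exceeded the count in library 2 for Ttn-203 and in every library for Ttn-204.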

Other observations

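Reads of nebulin, another giant protein of the sarcomere, were also placed mainly on a long transcript. Neb-202, of 22489 bases, held 910, 948 and 752 counts in libraries 1, 2 and 3, which is 66.2%, 71.4% and 71.9% of the gene's counts. Its level was 4.48, 3.86 and 4.04 TPM, beside 5.25, 5.77 and 9.62 TPM for Ttn-201. The shorter coding models Neb-213 and Neb-201 held 146, 119 and 102 counts and 87, 106 and 84 counts. By TPM the leading model was Neb-213, of 1825 bases, at 9.09, 6.11 and 6.89, and Neb-206 was above Neb-202 in library 1 and stood at 2.62 and 2.92 in libraries 2 and 3. Tested smooth muscle markers were highest in another library. Actg2, an enteric smooth muscle actin, had 19.7, 41.3 and 20.1 TPM. All 3 tested members of the list passed and were highest in library 2, against 15.5% of all genes. For Tagln, one of them, the estimated counts were 15, 22 and 4 but the whole-number counts 16, 18 and 16. Of the untested members, Cnn1 and Myh11 were highest in library 2, and Acta2 and Lmod1 in library 3, all from few counts. Stromal and endothelial markers summed to 4.66, 4.75 and 6.15 TPM. Most of this was Epcam, an epithelial gene in that list, at 3.58, 3.67 and 5.40 TPM. The other 8 members were under 1 TPM in all libraries, with Col3a1 at 0 estimated counts in all and 1, 0 and 0 whole-number counts.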
